A study of Mus musculus with 24 samples.

Results

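The neuron-enriched miRs were 26 mature probe sets of the miR array, out of 1412 mouse probe sets in all, of which 722 measured mature or star forms and 690 measured hairpins. They were chosen by name: every mature probe set for miR-7a, miR-7b, miR-9, miR-124, miR-125a, miR-125b, miR-128, miR-129, miR-132, miR-135a, miR-135b, miR-137, miR-138, miR-139, miR-153, miR-212, miR-218, miR-330, miR-344, miR-383 and miR-384 was taken. Both arms were taken where neither was labelled a star form, and star forms were left out. The rule used no measured value, but the members were chosen with earlier results of these data known. They were measured in hippocampal RNA of C57BL/6 male mice killed on P9, on 9 arrays with 3 each from Con, MS2 and MS5, and the genes tied to them were read on 15 mRNA arrays with 5 from each group. Con pups were untreated and left with minimal handling. MS2 pups received morphine at 2 mg/kg and MS5 pups at 5 mg/kg from P5 on, and both of these groups were also taken from the dam, kept warm in isolation and exposed to nitrogen and then oxygen to mimic apnea. A contrast of MS2 or MS5 with Con therefore spanned morphine, stress and apnea together, and only the contrast of MS5 with MS2 set 1 dose against the other. The sources differ on the injection route and on the length of the separation. Each array held the pooled left and right hippocampi of 1 animal, so replicates were animals, and the labels do not tie animals to litters.

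A miR is cut from a hairpin transcript by Drosha and Dicer and loaded into an Argonaute protein, where its seed, bases 2 to 8 from the 5′ end, pairs with messages that it represses. Either arm of a hairpin, named 5p or 3p, can be loaded, and the loaded arm is protected while the other decays. Neurons are rich in a small number of miRs: miR-124 and miR-9 act in neuronal differentiation, miR-132 and miR-212 are induced by neuronal activity through CREB, and miR-138 restrains the growth of dendritic spines.

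RefSeq, on build GRCm38.p6, held the mature sequences of 22 of the 26 members, and miR-124, miR-135b, miR-330 and miR-383 are given by name only. The 22 carried 19 different seeds, and 3 seeds were shared by a pair of members each. The sequences below are those on which the results turn, written 5′ to 3′ with the seed in capitals. The first lines are both arms of the miR-139 hairpin, which lies on chr7 at chr7:101475418-101475439 (3p) and chr7:101475382-101475403 (5p), plus strand, within the span of the gene Pde2a.
miR-139-3p: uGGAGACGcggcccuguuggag
miR-139-5p: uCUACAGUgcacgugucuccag
The next pair are neighbours on chr11, miR-132 at chr11:75173723-75173744 and miR-212 at chr11:75173443-75173464, plus strand, in no annotated gene span. They share the seed AACAGUC and 17 of 22 bases, counted position by position from the 5′ end.
miR-132: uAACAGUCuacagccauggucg
miR-212: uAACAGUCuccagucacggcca
The 5p arms of miR-125a and miR-125b share the seed CCCUGAG, and the miR-125a hairpin lies within the span of Spaca6, at chr17:17830817-17830840 for the 5p arm.
miR-125a-5p: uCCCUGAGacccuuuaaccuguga
miR-125b-5p: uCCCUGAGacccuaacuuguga
The last set are the remaining members that passed a threshold or differed without overlap in MS2. miR-153, at chr12:117250860-117250881, lies within the span of Ptprn2, and miR-384-5p, at chrX:105344332-105344354 on the minus strand, carries the seed of the miR-30 family. miR-138 is encoded at chr8:94324312-94324334, within the span of Nup93, and at chr9:122682898-122682920, in no annotated gene span.
miR-153: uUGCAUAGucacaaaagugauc
miR-384-5p: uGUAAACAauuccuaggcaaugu
miR-138: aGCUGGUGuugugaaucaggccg
The table gives gene spans only, so exons and introns were not told apart.

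All values are log2 levels as deposited, and probe sets were not ranked by level, since probes differ in affinity. For a pair of probe sets only the change of their difference between groups was compared. A member was said to pass the threshold when its fold change exceeded 1.5 and its limma p was under 0.05 before adjustment, the rule of the study. The Benjamini-Hochberg adjusted p over all 1412 probe sets was a second rule. With 3 arrays against 3, an exact permutation test cannot go below 0.1. In RNA of whole hippocampi, fewer cells of a type and less RNA per cell cannot be told apart.

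The array of MS2 replicate 4 stood apart. Its members lay 0.913 (root mean square, log2) from the mean of the other MS2 arrays, against 0.187 to 0.554 on the other 8 arrays. The mRNA array with the same group and number carried Pmch, a hypothalamic peptide gene, at 13.33 against 5.99 to 7.55 elsewhere, and Hcrt, another, at 12.31 against 7.92 to 8.45. Of 12 diencephalon genes chosen after the data were seen, 7 were highest on that array. Prkcd, another of the 12, was at its lowest there, at 10.32 against 10.86 to 11.68 elsewhere, and Avp and Oxt were highest on MS5 arrays. On MS2 replicate 4, 8 of the 12 lay more than 1 (log2) above their Con mean. On MS5 replicates 8, 12 and 14 there were 4, 3 and 4, and on each other array 0 to 2. The mean over 10 neuron markers was 12.26 on MS2 replicate 4 and 13.61 to 13.98 on the others. Of these 10, 7 were at their lowest on that array. Neurod2, Neurod6, Camk2a and Slc17a7, which mark hippocampal and cortical excitatory neurons, stood at 10.59, 10.02, 9.07 and 9.38 there against lowest values of 13.49, 13.03, 11.62 and 12.08 on the other arrays. The general neuron genes Snap25 and Syt1 were within the range of the other arrays there, at 16.22 and 16.14, and Tubb3, at 15.97, was the highest of the 15 arrays. MiRs of choroid plexus and ependyma averaged 5.48 and 5.54 on MS5 replicates 12 and 14 and 6.36 to 7.09 on the other 7 arrays, and choroid mRNAs averaged 10.41 and 9.44 on MS5 replicates 9 and 14 and 11.90 to 13.15 on the others, so the low arrays carried the numbers 12 and 14 in the miR assay and 9 and 14 in the mRNA assay. The mRNA array of MS5 replicate 9, labelled male, carried Xist, the transcript of the silent X chromosome, at 11.34 against 5.89 to 6.08 elsewhere, and the Y-linked Ddx3y at 6.24 against 11.01 to 11.45. Whether these differences in tissue content had a part in the results below was not tested, and results that rest on MS2 replicate 4 are given with and without it.

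All 26 members were tested. A filter on dim probe sets, which kept those with a mean level at or above the median of all probe sets and served only as an alternative, kept 23 of them and left out miR-135a, miR-135b and miR-384-3p.

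In MS2 versus Con the members that passed the threshold were miR-384-5p, miR-153 and miR-125a-5p, which were higher, and miR-139-3p, which was lower. These were 4 of 26, against 42 of 1412 probe sets, or 2.97%, with 1.42% higher and 1.56% lower. Of the other mature probe sets 5.22% passed. With the filter on level the same 4 passed, out of 23 members, against 5.95% of the probe sets kept. At an adjusted p under 0.05 there were 2, miR-139-3p and miR-212, both lower, against 16 of 1412, or 1.13%. The 3 MS2 arrays lay wholly above or below the 3 Con arrays at 6 members, 3 higher and 3 lower, against 15.8% of all probe sets, 7.22% higher and 8.57% lower. Among the other mature probe sets 18.8% did not overlap. At an unadjusted p under 0.05 there were 8 members, against 13.2% of all. The median fold change of the members was 0.08 (log2) against -0.01 for all probe sets, and 16 members had a higher mean and 10 a lower one. The median size of the difference was 0.26 for the members and 0.14 for the 575 other mature probe sets, which were not matched to the members on level. Without MS2 replicate 4, 7 members passed the threshold (miR-125b-3p, miR-128, miR-137, miR-139-3p, miR-218, miR-383 and miR-384-5p) and 6.44% of all probe sets did. At an adjusted p under 0.05 there were 3 members (miR-125b-3p, miR-139-3p and miR-212), against 95 of 1412 probe sets, and 17 members did not overlap against 32.6% of all. Without Con replicate 16, 17 or 18, or without MS2 replicate 6, no probe set had an adjusted p under 0.05, members included. In these settings 3 to 5 members passed the threshold, against 1.84% to 4.46% of all probe sets.

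miR-139-3p had the smallest p of the members in MS2 versus Con. Its level was 8.45, 8.07 and 8.00 on the Con arrays, 7.29, 6.82 and 7.36 on the MS2 arrays and 8.08, 7.92 and 7.98 on the MS5 arrays. All 3 MS2 arrays lay below every Con and MS5 array, and MS5 overlapped Con. In MS2 versus Con it was lower by a log2 fold change of -1.02 (SE 0.16, limma adjusted p = 0.0184), 2.03-fold, the lowest of all 1412 probe sets, and the exact p was 0.1. Without MS2 replicate 4, the array with its lowest level, the log2 fold change was -0.85. miR-139-3p passed the threshold under each of 14 alternatives for this contrast and the adjusted threshold under 8 of them. The mean was 8.17 ± 0.24 (SD, n = 3) in Con, 7.15 ± 0.29 in MS2 and 7.99 ± 0.08 in MS5.

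The other arm of the same hairpin was also on the array. miR-139-5p, which falls outside the rule for members given in full and was added after its values were seen, was at 9.50, 9.41 and 9.26 in Con, 9.44, 9.02 and 9.54 in MS2 and 9.79, 9.93 and 9.89 in MS5. MS2 overlapped Con, and MS5 lay above both. The log2 fold change was -0.05 (SE 0.13, limma adjusted p = 0.923) in MS2 versus Con, or 0.10 without MS2 replicate 4, and 0.48 (SE 0.13, limma adjusted p = 0.428) in MS5 versus Con. The difference between the arms on an array, 5p minus 3p, was greater than in Con by 0.97 in MS2 and by 0.67 in MS5, with no overlap of groups in either contrast and an exact p of 0.1, the smallest these numbers of arrays allow. Leaving out MS2 replicate 4 gave 0.96 for MS2. The hairpin probe set of miR-139 had a log2 fold change of -0.36 (SE 0.11, limma adjusted p = 0.194) in MS2 versus Con and of -0.02 in MS5 versus Con, and passed no threshold.

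miR-212 and miR-132, which lie side by side and share a seed, are induced together from the same region. miR-212 was at 8.73, 8.65 and 8.57 in Con, 8.02, 8.22 and 8.12 in MS2 and 8.72, 8.57 and 8.71 in MS5. Every MS2 array lay below every other array, and Con and MS5 overlapped. The log2 fold change in MS2 versus Con was -0.53 (SE 0.083, limma adjusted p = 0.0184), 1.44-fold, which is under the fold of the first threshold, and the adjusted p was under 0.05 in 6 of 14 alternatives. miR-132 was at 11.02, 11.04 and 10.76 in Con, 10.77, 11.21 and 10.86 in MS2 and 11.29, 11.23 and 11.36 in MS5. The MS5 arrays lay above every Con and MS2 array, and Con and MS2 overlapped. The log2 fold change of miR-132 was 0.01 (SE 0.12, limma adjusted p = 0.99) in MS2 and 0.36 (SE 0.12, limma adjusted p = 0.467) in MS5. The MS2 value was -0.12 without MS2 replicate 4. The difference miR-132 minus miR-212 was greater than in Con by 0.54 in MS2 and by 0.34 in MS5, with no overlap and an exact p of 0.1 in each contrast. For MS2 it was 0.46 without MS2 replicate 4.

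miR-125a-5p and miR-125b-5p, which repress messages of early progenitors such as Lin28a, were both brighter in MS2 than in Con on average. miR-125a-5p was at 11.50, 11.80 and 11.81 in Con, 12.36, 12.35 and 12.19 in MS2 and 11.69, 12.13 and 12.29 in MS5. The MS2 arrays lay above all Con arrays, and the MS5 arrays spanned both. The log2 fold change was 0.60 (SE 0.15, limma adjusted p = 0.101) in MS2 versus Con, 1.52-fold, which passed the first threshold narrowly and in 9 of 14 alternatives. It was 0.58 without MS2 replicate 4, under the threshold, and 0.33 (SE 0.15, limma adjusted p = 0.615) in MS5 versus Con. miR-125b-5p was at 13.19, 13.39 and 13.24 in Con, 13.61, 13.37 and 13.49 in MS2 and 13.37, 13.46 and 13.44 in MS5. Its groups overlapped in both contrasts, and the fold changes were 0.22 (SE 0.087, limma adjusted p = 0.302) and 0.15 (SE 0.087, limma adjusted p = 0.727). Without MS2 replicate 4 the first was 0.28, with no overlap. The 3p arms had lower means in MS2 than in Con, by -0.17 (SE 0.19) for miR-125a-3p and by -0.40 (SE 0.23) for miR-125b-3p, without passing a threshold. Without MS2 replicate 4 neither group pair overlapped, and the values were -0.40 for miR-125a-3p, which still passed no threshold, and -0.71 for miR-125b-3p, which passed both. The 5p minus 3p difference was greater than in Con by 0.77 in MS2 for miR-125a, with no overlap (exact p = 0.1), and by 0.61 for miR-125b, with overlap (exact p = 0.3), or by 0.99 without MS2 replicate 4, with no overlap (exact p = 0.1).

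Across the 5 hairpins with both arms among the members and the miR-132 and miR-212 neighbours, 18 such contrasts of a difference were computed after the data were seen. Hairpins whose other arm was measured by a star probe set were not included. Groups did not overlap in 8 of them, and the adjusted exact p of those 8 was 0.225. The groups overlapped in every contrast for miR-129 and miR-384.

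miR-384-5p was at 4.31, 4.50 and 4.33 in Con, 4.82, 5.33 and 5.35 in MS2 and 4.62, 5.1313 and 4.64 in MS5. All 6 arrays of treated pups lay above all 3 Con arrays. The Con levels were dim, close to the median of all probe sets on those arrays, 4.17 to 4.21. The log2 fold change was 0.79 (SE 0.17, limma adjusted p = 0.0732) in MS2 versus Con, the highest among the members, and 0.42 (SE 0.17, limma adjusted p = 0.57) in MS5 versus Con. It passed the threshold in MS2 versus Con under each of the 14 alternatives.

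miR-153, known for binding the message of App, was at 6.13, 5.82 and 5.57 in Con, 6.29, 6.9958 and 6.34 in MS2 and 6.36, 6.20 and 6.97 in MS5. The treated arrays lay above the Con arrays in both groups, and the gap between the highest Con array and the lowest treated one was small. It passed the threshold in MS2 versus Con, at 0.70 (SE 0.25, limma adjusted p = 0.243), and in MS5 versus Con, at 0.67 (SE 0.25, limma adjusted p = 0.509). It did so in 11 of 14 alternatives for each contrast, and in MS2 the fold change was 0.48 without replicate 4, under the threshold. The study also named miR-153 as altered on the array and measured it by RT-PCR. It was not among the miRs for which the study reported that RT-PCR bore out the array.

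miR-138 was at 13.40, 13.02 and 13.13 in Con, 12.67, 12.84 and 12.64 in MS2 and 13.12, 12.70 and 13.03 in MS5. The MS2 arrays lay below all Con arrays, and MS5 overlapped both groups. The log2 fold change of -0.47 (SE 0.13, limma adjusted p = 0.149) in MS2 versus Con was under 1.5-fold. Its star form, the other arm, had a log2 fold change of -0.35 (SE 0.096, limma adjusted p = 0.127) in the same contrast.

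The miRs of neuronal differentiation did not pass a threshold with all arrays. miR-124, which represses the splicing factor Ptbp1 as neurons mature, was at 14.36, 14.28 and 14.17 in Con, 14.18, 14.38 and 14.25 in MS2 and 14.28, 14.28 and 14.32 in MS5. The groups overlapped, the fold changes were -0.00075 and 0.02 (SE 0.079 for each) in MS2 and MS5 versus Con, and the limma adjusted p was 0.999 and 0.978. miR-9 was at 7.30, 7.27 and 7.22 in Con, 7.94, 6.71 and 7.55 in MS2 and 6.55, 7.21 and 7.52 in MS5. Its Con arrays lay close together, and each treated group had arrays on both sides of them. The fold change was 0.14 (SE 0.31) in MS2 and -0.17 (SE 0.31) in MS5 versus Con. Without MS2 replicate 4, the lowest of its group, the MS2 value was 0.48 and the groups did not overlap.

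miR-128, which limits neuronal excitability, was at 10.59, 10.99 and 10.63 in Con, 11.31, 10.87 and 11.49 in MS2 and 10.68, 11.30 and 11.07 in MS5. The groups overlapped, and the fold change in MS2 versus Con was 0.49 (SE 0.20, limma adjusted p = 0.315) with all arrays and 0.66 without replicate 4. miR-137, which acts on Ezh2 and Mib1 in the maturation of neurons, was at 6.09, 6.61 and 5.99 in Con, 6.96, 5.73 and 6.95 in MS2 and 6.18, 6.86 and 6.94 in MS5. MS2 replicate 4 was the lowest of the 9 arrays and its group mates were the highest, so the fold change of 0.32 (SE 0.34) became 0.72 without it.

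miR-218, whose copies lie within the spans of Slit2 and Slit3, was at 5.49, 5.68 and 5.65 in Con, 6.33, 5.06 and 6.26 in MS2 and 5.17, 5.8031 and 5.99 in MS5. MS2 replicate 4 was again the lowest of all arrays, and the fold change in MS2 versus Con was 0.28 (SE 0.32) with it and 0.69 without it. miR-7a was at 5.44, 5.70 and 5.69 in Con, 5.77, 5.29 and 5.84 in MS2 and 4.84, 5.70 and 6.69 in MS5. The spread within MS5 exceeded any difference between groups, and the fold change in MS2 versus Con was 0.03 with all arrays and 0.20 without replicate 4.

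For miR-344 and miR-383, MS2 replicate 4 was the highest of the 9 arrays. miR-344, which has copies on chr7 at chr7:61877782-61877804 and chr7:61940036-61940058, was at 8.85, 8.51 and 8.44 in Con, 8.63, 10.65 and 8.75 in MS2 and 9.73, 8.92 and 9.93 in MS5. All MS5 arrays lay above all Con arrays. Its fold change in MS5 versus Con, 0.93 (SE 0.49, limma adjusted p = 0.704), was the highest of all 1412 probe sets but missed the threshold, because the unadjusted p was 0.0898. miR-383, named here after its values were seen, was at 9.25, 9.09 and 8.63 in Con, 8.03, 11.05 and 8.60 in MS2 and 9.69, 9.25 and 10.07 in MS5. Its fold change in MS2 versus Con was 0.24 (SE 0.64) with all arrays and -0.67 without replicate 4, which turns the direction.

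In MS5 versus Con 1 member passed the threshold, miR-153, against 0.992% of all probe sets, of which 0.212% were higher and 0.779% lower, and it no longer did without Con replicate 17, Con replicate 18 or MS5 replicate 14. No member had an adjusted p under 0.05, and neither did any other probe set (0% of 1412, limma), while 4 members had an unadjusted p under 0.05 (miR-132, miR-139-5p, miR-153 and miR-384-5p) against 8.5% of all. At 9 members the MS5 arrays lay wholly above the Con arrays (miR-129-5p, miR-132, miR-135b, miR-139-5p, miR-153, miR-330, miR-344, miR-383 and miR-384-5p) and at 0 wholly below, while 6.52% of all probe sets lay wholly above and 5.74% wholly below. Of these 9, 8 passed the filter on level and miR-135b did not. The median fold change of the members was 0.15 against 0.00 for all probe sets, and 0.31 without MS5 replicate 9. 19 members had a higher mean and 7 a lower one, and miR-138 was the lowest at -0.23 (SE 0.13). In the same contrast 4 of 9 choroid and ependyma miRs passed the threshold, all lower, and on the mRNA arrays 9 of 10 choroid markers did, all lower. Of the 12 diencephalon genes, chosen after the data were seen, 3 passed it on the mRNA arrays, all higher, against 0.228% of all probes. The part of these tissue markers in the members' values was not tested.

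Between the doses, 1 member passed the threshold, miR-139-3p, which was higher in MS5 than in MS2 by 0.84 (SE 0.16, limma adjusted p = 0.128), against 0.425% of all probe sets, 0.142% higher and 0.283% lower. No member reached an adjusted p under 0.05, and of all probe sets 0% did (limma), while 5 members had an unadjusted p under 0.05 (miR-132, miR-139-3p, miR-139-5p, miR-212 and miR-330) against 7.01% of all. These same 5 were the members whose arrays did not overlap, all higher in MS5, where 8.43% of all probe sets did not overlap, 5.59% lay wholly higher and 2.83% wholly lower. Among the other mature probe sets 0.87% passed the threshold and 8.7% did not overlap. miR-212 was higher in MS5 by 0.55 (SE 0.083, limma adjusted p = 0.128), and miR-384-5p had the lowest fold change, -0.37 (SE 0.17). Without MS2 replicate 4, 6 members passed (miR-9, miR-139-3p, miR-212, miR-218, miR-344 and miR-383) against 3.05% of all probe sets, and 18 did not overlap against 27%. Without MS2 replicate 3, MS2 replicate 6 or MS5 replicate 12 the count was 2.

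With MS2 and MS5 averaged and set against Con, 3 members passed the threshold: miR-139-3p at -0.60 (SE 0.14), miR-384-5p at 0.60 (SE 0.15) and miR-153 at 0.69 (SE 0.21), against 0.992% of all probe sets, 0.496% higher and 0.496% lower. No member had an adjusted p under 0.05, the smallest being 0.111 in limma, against 0.354% of all probe sets. miR-384-5p and miR-153 did not overlap between 6 treated and 3 Con arrays (exact p = 0.0238 and 0.0357, unadjusted), both higher in treated pups, against 5.52% of all probe sets, 2.62% higher and 2.9% lower. Among the other mature probe sets 1.39% passed the threshold and 7.48% did not overlap. Without MS2 replicate 4, 0 members passed the first threshold, against 1.42% of all probe sets. In that setting miR-125b-3p and miR-139-3p had an adjusted p under 0.05, against 27 of 1412 probe sets. Without Con replicate 16 or 18 only 1 passed the first threshold (miR-153 and miR-139-3p, in that order), against 0.637% and 0.85% of all. This contrast and those of MS2 and MS5 with Con share the same Con arrays, so they do not count as separate evidence.

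The array also carried 50 hairpin and 9 star probe sets of the same miR numbers. In limma none had an adjusted p under 0.05 in any of the 4 contrasts, and the smallest was 0.0934. In MS2 versus Con 2 star forms passed the first threshold, miR-218-2-star at -0.69 (SE 0.16) and miR-330-star at -0.67 (SE 0.22), and 0 hairpins did. For the members that passed, the hairpin probe sets gave log2 fold changes of -0.03 for miR-153, 0.04 for miR-212, 0.15 for miR-125a and -0.03 for miR-384 in MS2 versus Con.

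On the mRNA arrays, 46 genes tied to these miRs were read: 9 genes listed as hosts of a member, 20 textbook targets and 17 genes of miR processing. The spans of 7 of the hosts hold a member in RefSeq. Eml2 and Sgcz were listed from general knowledge for miR-330 and miR-383, whose positions were not analysed here, and Spaca6 and Nup93 were not on the list. Against 0.0233%, 0.228% and 0.129% of 55681 probes in MS2 versus Con, MS5 versus Con and MS5 versus MS2, 0 of the 46 passed the threshold in any of these contrasts. The adjusted p under 0.05 was reached by 0% of probes in each of them, and at an unadjusted p under 0.05 there were 5, 1 and 2 of the 46, against 4.17%, 3.91% and 3.97% of all probes (limma). Host medians were -0.06, 0.15 and 0.07 (log2 fold change, in the same order), target medians -0.06, -0.05 and 0.05, and processing medians 0.08, 0.05 and -0.02, beside -0.0017, 0.00033 and 0.0011 for all probes.

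Ptprn2, a phosphatase-like protein of secretory vesicles whose span holds miR-153, was the host with the smallest p. It was at 9.06, 8.67, 8.75, 8.49 and 8.55 on the Con arrays, 9.16, 9.10, 8.93, 8.93 and 9.23 in MS2 and 9.05, 9.15, 8.79, 8.90 and 9.06 in MS5. Replicate 15 of Con lay among the treated arrays and the other 4 Con arrays lay below all of them. The fold change was 0.37 (SE 0.10, limma adjusted p = 0.97, exact p = 0.0238) in MS2 versus Con and 0.29 (SE 0.10, limma adjusted p = 1.00, exact p = 0.0476) in MS5 versus Con, both under 1.5-fold.

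Of the other genes with an unadjusted p under 0.05 in MS2 versus Con, the host Eml2 was at 0.29 (SE 0.11), the Argonaute gene Ago3 at 0.19 (SE 0.066), Tut4, which adds uridines to miR precursors, at 0.18 (SE 0.077), and Gria2, a glutamate receptor subunit, at -0.26 (SE 0.11). In MS5 versus MS2 they were Rest, a repressor of neuronal genes, at -0.21 (SE 0.088), and Trim71, an early progenitor gene, at 0.11 (SE 0.049). The smallest adjusted p among these was 0.97 in limma. Among targets in MS5 versus Con the lowest and highest were Rest at -0.17 (SE 0.088) and Lin28a at 0.12 (SE 0.098). Among processing genes they were Xpo5, the exporter of precursors, at -0.09 (SE 0.079) and Adarb1, an RNA editing enzyme, at 0.28 (SE 0.19) in that contrast, and Ago3 at -0.14 (SE 0.066) and Drosha at 0.05 (SE 0.046) in MS5 versus MS2.

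Pde2a, whose span holds both miR-139 arms and which was added after its values were seen, was at 15.32, 15.00, 15.26, 15.33 and 15.53 in Con, 15.28, 15.15, 14.10, 15.65 and 15.37 in MS2 and 15.56, 15.55, 15.40, 15.32 and 15.54 in MS5. The groups overlapped, and MS2 replicate 4 was the lowest of the 15 arrays. Arpp21, whose span holds a copy of miR-128, was at 11.33, 10.59, 11.14, 10.96 and 14.32 in Con, 11.26, 10.71, 11.04, 14.14 and 11.49 in MS2 and 14.88, 12.16, 13.07, 11.54 and 13.54 in MS5. Its fold change of 1.37 (SE 0.80, limma adjusted p = 1.00) in MS5 versus Con was the highest among the hosts and lay within the spread between arrays of a group.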

How the data were processed

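Hippocampal RNA was hybridized to 9 Affymetrix miR arrays and 15 Agilent mRNA arrays. The unit of the deposited miR values is log2, after the authors' background correction, probe-level quantile normalization and median polish; the submitters' notes name RMA. The deposited mRNA scanner files (Feature Extraction 10.7.1.1) hold intensity per spot without normalization between arrays, and the authors' mRNA table holds log2 values after normexp and quantile normalization.

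The miR values were used as deposited. The mRNA intensity was background adjusted (normexp, offset 50), quantile normalized, and averaged over spots to 55681 probes. These values equalled the authors' table, with a largest difference of 5.0e-09 at probes with 1 spot. Each gene was represented by its brightest probe. R 4.3.3, limma 3.58.1, data.table (1.17.8) and Python 3.11.15 with pandas 2.3.3 were used. limma (lmFit, eBayes) compared the 3 groups in 1 fit per assay, with Benjamini-Hochberg adjustment where the study used q-values for miRs. Exact permutation tests were two-sided, over 20 assignments for 3 against 3, 84 for 6 against 3 and 252 for 5 against 5. The fit was tested on simulated data. The number of arrays limited the precision.

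Members were chosen by name, and the members and lists were chosen with earlier results of these data known. Values on every array are given for members past a threshold and for 10 miRs fixed by name; list genes are named at an unadjusted p under 0.05, or else as the highest and lowest of their list. The diencephalon and sex genes, the comparison of arms, the relation with GC content and the counts of groups that do not overlap without MS2 replicate 4 were chosen after seeing the data. The arm that an unlabelled probe set measures was taken from miR nomenclature. Alternatives were centring, quantile normalization, array weights, mature probe sets only, a filter on level, an intensity trend, only the groups compared, and leaving out each array. For mRNAs they were the authors' table, array weights, the scanner's processed signal at the 75th percentile, a background filter, the slide as a block and leaving out each array.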

Additional observations from a re-analysis of the deposited data

Results flagged for a closer look

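In 69 groups of 5 mRNA arrays, 23 genes each in Con, MS2 and MS5, the array farthest from its group was tested with Dixon's criterion, which chance alone meets in about 1 group in 20. It was met in 16, of which 10 were on MS2 replicate 4. Of the 23 genes, 11 were picked after their values were seen and held 12 of the 16, and the other 12, named by their p-values or as the highest or lowest of their list, held 4, so the count is a description and not to be read against the share that chance gives. That array was the lowest of its group for Neurod2 (10.5913), Neurod6 (10.0164), Camk2a (9.0693) and Slc17a7 (9.38), and the highest for the hypothalamic peptide genes Hcrt (12.3133) and Pmch (13.3288), for Tcf7l2 (9.7921), Gbx2 (9.7625) and Lhx9 (13.0836), which mark thalamus and neighbouring regions, and for the editing gene Adarb1 (14.7069). The miR array with the same group and number held the highest level of the 9 arrays for 7 members (miR-124, miR-125b-3p, miR-129-3p, miR-129-5p, miR-153, miR-344 and miR-383) and the lowest for 4 (miR-137, miR-139-3p, miR-139-5p and miR-218). These were 11 extremes, against 12 on MS2 replicate 3 and 1 to 8 on the other 7 arrays, and its part in those values was not tested beyond leaving it out. Xist was far above its group on MS5 replicate 9 (11.343) and slightly above on Con replicate 19 (6.0777). Arpp21 was high on Con replicate 19 (14.3151) and MS2 replicate 5 (14.1429). Ago3 was low on Con replicate 18 (7.28), and Neurod6 was low on Con replicate 19 (13.3219).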

How the results depend on the processing

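For 14 named miRs in 4 contrasts, 812 values were computed under an alternative: 719 kept their direction and their side of the threshold (1 of them, miR-125b-5p in MS5 versus MS2 with quantile normalization on top, came to 0), 33 fell below it, 11 came to pass it and 49 turned direction, in 17 pairs of a miR and a contrast that passed no threshold with all arrays. With an array left out, these ranged in MS2 versus Con from -0.077 to 0.20 (miR-7a), -0.13 to 0.48 (miR-9), -0.055 to 0.045 (miR-124) and -0.12 to 0.097 (miR-132); in MS5 versus Con from -0.34 to 0.59 (miR-7a), -0.38 to 0.10 (miR-9), -0.024 to 0.071 (miR-124), -0.023 to 0.068 (miR-212) and -0.12 to 0.29 (miR-218); in MS5 versus MS2 from -0.36 to 0.56 (miR-7a), -0.018 to 0.080 (miR-124), -0.29 to 0.35 (miR-137), -0.26 to 0.19 (miR-153) and -0.64 to 0.013 (miR-218); and with treated groups combined from -0.15 to 0.31 (miR-7a), -0.15 to 0.16 (miR-9) and -0.037 to 0.058 (miR-124). Centring on the mature medians turned miR-7a (-0.067) and miR-132 (-0.084) in MS2 versus Con, miR-124 (-0.021) and miR-212 (-0.028) in MS5 versus Con, miR-153 (0.013) in MS5 versus MS2 and miR-124 (-0.058) with treated groups combined. Array weights turned miR-132 (-0.056) in MS2 versus Con, miR-137 (-0.087) and miR-153 (0.095) in MS5 versus MS2, and miR-9 (0.087) and miR-124 (-0.0027) with treated groups combined. Quantile normalization on top turned miR-7a in MS2 versus Con (-0.15) and with treated groups combined (-0.065), and centring on all medians turned miR-124 in MS2 versus Con (0.013). The members past the first threshold numbered 4 in MS2 versus Con (3 to 7 with an array left out), 1 in MS5 versus Con (0 to 2), 1 in MS5 versus MS2 (1 to 6) and 3 with both treated groups against Con (0 to 4). In MS5 versus Con they were 3 with quantile normalization on top or with only the groups compared, and 2 with array weights; in MS5 versus MS2 they were 2 with centring on the mature medians. Members with an adjusted p under 0.05 in MS2 versus Con numbered 2 with all arrays, 0 to 3 with an array left out, 1 with quantile normalization on top, and 0 with an intensity trend or only the groups compared. Over all 1412 probe sets the counts were 16, 0 to 95, 17 and 0, in the same order. With treated groups combined the members were 0 (0 to 2) and all probe sets 5 (0 to 27). Members whose groups did not overlap went from 6 to 17 in MS2 versus Con and from 5 to 18 in MS5 versus MS2 without MS2 replicate 4. This alternative was added after seeing the data. The share over all probe sets went from 15.8% to 32.6% and from 8.43% to 27%. Leaving out an array can only keep or raise such counts, and the part of this in the rise was not tested. Centring on the mature medians moved the median of all probe sets in MS2 versus Con to -0.11 and that of the members from 0.077 to -0.016; the members' median ranged from 0.12 to 0.31 in MS5 versus Con and from -0.020 to 0.22 in MS5 versus MS2 with an array left out. Of the 46 genes, 0 passed the first threshold, except 1 in MS5 versus Con without Con replicate 19 (0 to 1 with an array left out) and 1 in MS5 versus MS2 with array weights (0 to 1 with an array left out). No paired analysis was possible because the groups share no replicate numbers. Why the results differ between settings was not tested.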

Other observations

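The base composition of the members varied with their fold change in MS2. Over the 22 members with a RefSeq sequence, 10 had a GC content of at least 50%, with a median log2 fold change of -0.11 in MS2 versus Con and 6 lower means. The 12 under 50% had a median of 0.30, and 11 of them had a higher mean. Pearson's r of GC content and fold change was -0.52 (Spearman's rho -0.42), and -0.67 without MS2 replicate 4. In MS5 versus Con r was -0.11, and in MS5 versus MS2, which shares the MS2 arrays, it was 0.64. These are descriptions over probe sets read on the same arrays, of which both arms of a hairpin are 2 points. miR-139-3p, with the highest GC content of the 22 at 68.2%, had the lowest fold change, and miR-384-5p, at 34.8%, the highest. The part of base composition in the fold changes was not tested.

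Members of the let-7 and miR-98 family, 9 probe sets measured on the same arrays, had a median log2 fold change of 0.02 in MS2 versus Con and 0.00 in MS5 versus Con. In MS2 versus Con 1 of the 9 passed the first threshold, higher, against 2.97% of all probe sets. At a limma adjusted p under 0.05 there was also 1, against 1.13% of all.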
